A study of Homo sapiens with 20 samples.

Results

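The 46 genes described here encode proteins that carry a cell through mitosis, from the kinases that start it to the machinery that separates the daughter cells. They were chosen by gene symbol, and each symbol matched 1 of the 58233 Ensembl gene identifiers in the count tables. They were grouped by role into entry kinases and cyclins (9 genes), the chromosomal passenger complex (3), kinetochore and spindle checkpoint proteins (9), spindle motors and microtubule proteins (10), anaphase and protein destruction (4), chromosome structure (3) and cytokinesis (8). The study asked how lung cancer cell lines respond to loss of ADAR1, an enzyme encoded by *ADAR* that edits adenosine to inosine in double-stranded RNA and is known to restrain RNA sensors of innate immunity. RNA sequencing was done on 20 libraries from 4 established human lines, with 2 libraries per condition and a different single guide RNA (sgRNA) in each of the 2. In every library the cells had been transduced with lentivirus carrying Cas9 and an sgRNA and selected in drug, so the controls carried Cas9 too, with an sgRNA against *GFP* (GFP sg1 or GFP sg2), a gene the cells lack. The other libraries carried an sgRNA against *ADAR* (ADAR sg1 or ADAR sg2) and are called *ADAR* KO. HCC366 (lung adenosquamous carcinoma), NCI-H1650 (lung adenocarcinoma) and NCI-H196 (variant small cell lung cancer), which the study treats as ADAR1-dependent cell lines, were left untreated, and RNA was taken 5 days after transduction. A549 (lung adenocarcinoma), a line not dependent on ADAR1, received 10 ng/mL interferon-β (IFN-β), a type I interferon, or water as vehicle for 24 h, with *GFP* or *ADAR* sgRNAs under each treatment.

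Most mitosis genes are transcribed late in the cell cycle and are shut off when cells stop dividing, so their RNA is widely used as a measure of proliferation. Entry into mitosis is driven by *CDK1* with cyclins B and A, and is supported by the Polo-like and Aurora kinases. Kinetochores then attach chromosomes to the spindle, the checkpoint holds anaphase back until attachment is complete, and *CDC20* with the anaphase-promoting complex destroys securin and cyclin B. In bulk RNA such as this, fewer cells in mitosis and less RNA per dividing cell cannot be told apart.

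Repression and late activation of such genes are known to act through short promoter elements, the cell cycle homology region (CHR) bound by the DREAM and MuvB complexes and the CCAAT box bound by NF-Y. In a window from 250 bases before to 50 bases after the transcription start (RefSeq, GRCh38.p14, a later build than the hg19 of the counts), 39 of the 46 genes had an entry. The CHR letters TTTGAA or TTCGAA, on either strand, lay in the windows of 30 of the 39 genes (76.92%), against 16.4% of all 35116 windows. CCAAT, on either strand, lay in 32 of the 39 (82.05%, against 34.6%), and 26 (66.67%) had both (6.38% of all windows). The E2F letters TTTCGCGC or TTTGGCGC were in 2 of the 39 (5.13%, against 1.15%). A match is a description of the letters and no evidence of binding. The 110 bases before the start are printed for 6 genes that the results below turn on, in the direction of transcription, with CHR and CCAAT letters on either strand in capitals, matches that overlap running together. *CDK1* (chr10:60778368-60778477, + strand), *KIF11* (chr10:92593020-92593129, + strand) and *MKI67* (chr10:128126424-128126533, − strand) were lower after *ADAR* KO in NCI-H1650, while *PLK1* (chr16:23678779-23678888, + strand), *PTTG1* (chr5:160421745-160421854, + strand) and *KIF18A* (chr11:28108157-28108266, − strand) changed in A549 with IFN-β.
CDK1: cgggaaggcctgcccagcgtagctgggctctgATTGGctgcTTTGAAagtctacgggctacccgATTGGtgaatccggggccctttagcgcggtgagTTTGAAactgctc
KIF11: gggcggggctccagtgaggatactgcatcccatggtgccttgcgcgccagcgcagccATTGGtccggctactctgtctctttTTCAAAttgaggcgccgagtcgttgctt
MKI67: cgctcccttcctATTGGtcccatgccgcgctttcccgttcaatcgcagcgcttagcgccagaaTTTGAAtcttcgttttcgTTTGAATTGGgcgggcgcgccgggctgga
PLK1: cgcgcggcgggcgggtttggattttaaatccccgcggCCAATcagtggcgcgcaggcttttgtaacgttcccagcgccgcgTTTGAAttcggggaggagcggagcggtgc
PTTG1: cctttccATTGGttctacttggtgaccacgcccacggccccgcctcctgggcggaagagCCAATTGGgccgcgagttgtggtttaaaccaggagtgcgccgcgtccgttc
KIF18A: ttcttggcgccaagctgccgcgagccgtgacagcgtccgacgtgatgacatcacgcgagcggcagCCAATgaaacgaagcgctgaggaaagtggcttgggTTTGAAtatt
In these 110 bases every gene had CCAAT letters, and all but *PTTG1* had CHR letters. Where a gene had several windows, the one with the most such matches in these bases was printed, which favours them. In the other *CDK1* window (chr10:60778081-60778380) the CCAAT and CHR letters began at −150 and −161, outside the 110 bases. *KIF18A*, which moved in the direction opposite to *PLK1* and *PTTG1* in A549, had both motifs. Over the 39 genes, the median log2 fold change after *ADAR* KO with and without CHR letters was −1.06 and −0.58 (HCC366), −0.37 and −0.33 (NCI-H1650), or −0.33 and −0.43 (NCI-H196), with 30 and 9 genes in the groups.

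The libraries held 62679 to 19520189 reads on genes (median 6411279). Values below are CPM (a gene's share of the reads on genes, TMM-scaled within each line), and the mitosis genes took 378 to 124769 reads per library. The smallest library was the NCI-H196 GFP sg2 control, in which 1 read was worth 14.66 CPM, and HCC366 ADAR sg2 stood apart in that 85.56% of its read records were not uniquely aligned, against 45.28 to 50.89% in the other HCC366 libraries. *ADAR* RNA was lower in every *ADAR* KO library than in both of its controls, and HCC366 had a log2 fold change of −0.84 ± 0.309 (SE), NCI-H1650 of −1.29 ± 0.106 and NCI-H196 of −0.41 ± 0.107, while A549 had −1.08 ± 0.135 with vehicle and −0.60 ± 0.131 with IFN-β. The adjusted p for *ADAR* was 0.208 in HCC366 and at most 0.00165 in the other comparisons (edgeR's quasi-likelihood test). An sgRNA that shifts the reading frame need not lower RNA, so these values check the labels only in part. The markers of the labelled tumour types were weak in places. The 6 *squamous markers* summed to 1.55 to 9.05 CPM in HCC366, with no read for *DSG3* or *SOX2*, and the 8 *neuroendocrine markers* summed to 13 to 18.3 CPM in NCI-H196, against 9.67 to 35.1 CPM in the other lines. In NCI-H196 *NCAM1* made up most of that sum (mean 13.1 CPM, against 0.14 to 0.799 in the other lines), *CHGA* and *SYP* had means of 1.19 and 1.28 CPM, and *DLL3*, *POU2F3*, *INSM1* and *NEUROD1* had no read, the last in no line. The 6 *fibroblast markers* summed to 5140 to 6880 CPM in NCI-H196, against at most 184 CPM in the other lines.

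Control cells of all 4 lines transcribed the mitosis genes, A549 the most. With all 20 libraries scaled together, the 46 genes summed to 9687 ± 173 CPM (SD, n = 2) in A549 *GFP* cells with vehicle, 6353 ± 351 in NCI-H1650, 5100 ± 735 in HCC366 and 4131 ± 251 in NCI-H196. The libraries of HCC366 (5619 and 4580) and NCI-H196 (4309 and 3954), neighbours in that order, did not overlap, and the 2 HCC366 libraries lay farther apart than the means of the lines. NCI-H1650 (6601 and 6104) lay above both. Per kilobase of exon, the median level over the 46 genes was 35.74 CPM per kb (A549), 21.54 (NCI-H1650), 17.9 (NCI-H196) and 16.92 (HCC366). The gene with the highest level per kilobase was *TOP2A*, the topoisomerase that untangles replicated chromosomes, in A549 (222.2 CPM per kb) and in HCC366 (92.48). In NCI-H1650 it was *ANLN* (159.1), the scaffold of the contractile ring, and in NCI-H196 it was *TPX2* (75.91), which activates Aurora A on the spindle. *UBE2C*, the ubiquitin-conjugating enzyme of the anaphase-promoting complex, was the lowest in HCC366 at 1.632 CPM per kb and was there too low to be tested.

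**Figure D1:**
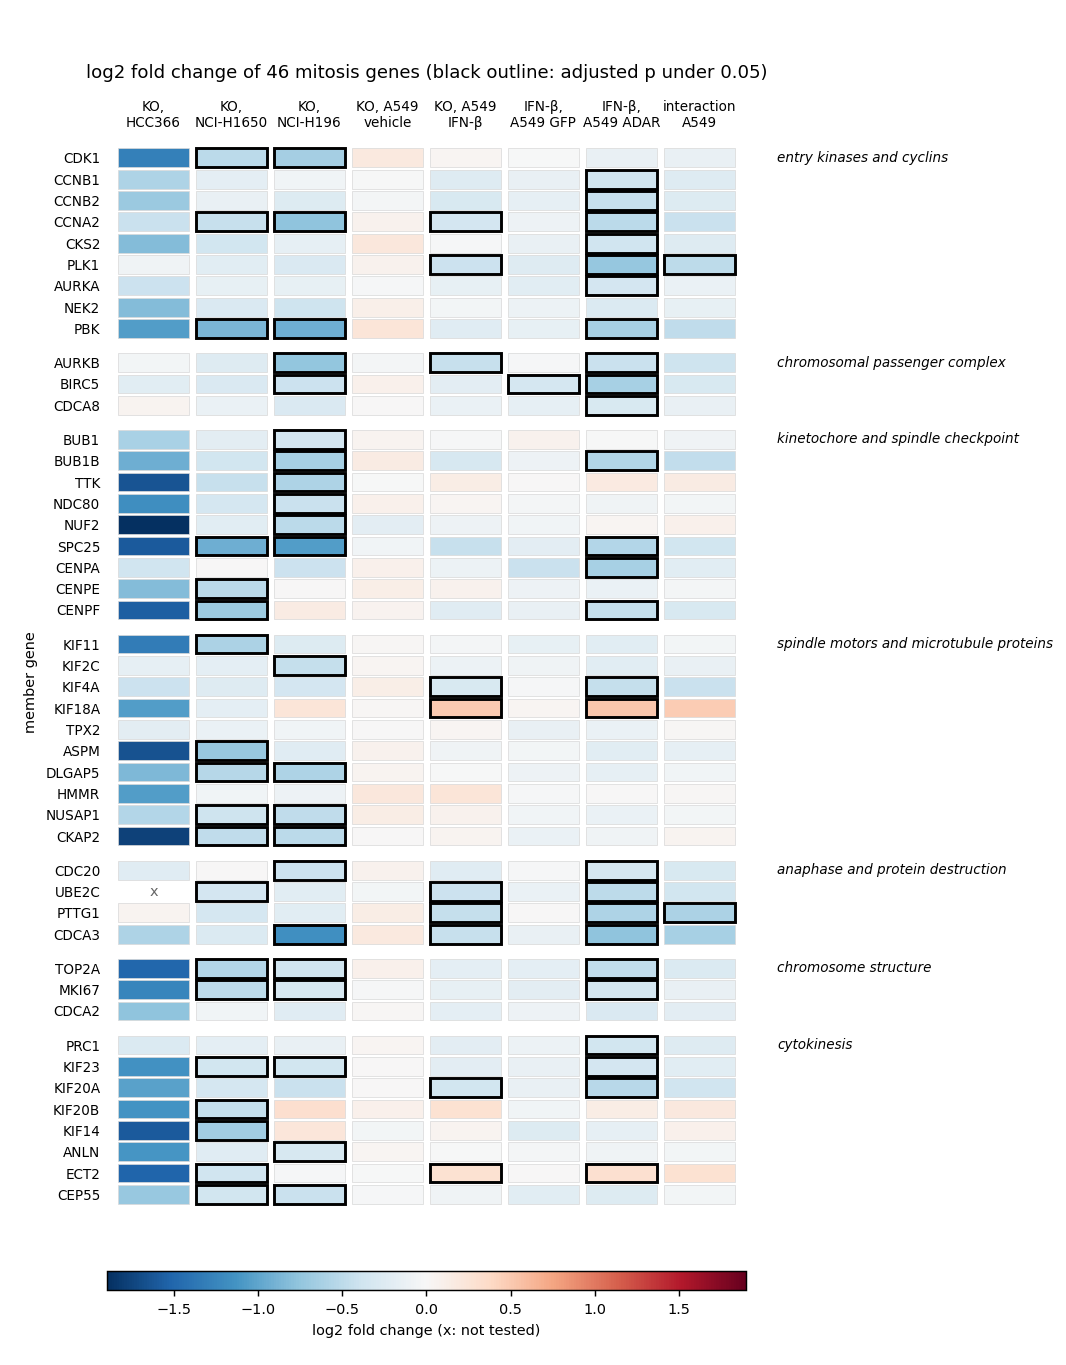
Log2 fold change of each of the 46 mitosis genes (vertical axis, grouped by role) in 8 comparisons (horizontal axis), from blue (lower) to red (higher), with a black outline where the adjusted p was under 0.05 and a cross where the gene was not tested. For *ADAR* KO the outlined genes number 0 (HCC366), 19 (NCI-H1650), 22 (NCI-H196), 0 (A549 with vehicle) and 10 (A549 with IFN-β), and 1, 26 and 2 for IFN-β in *GFP* cells, IFN-β in *ADAR* KO cells and the interaction.

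In HCC366, 43 of the 45 genes tested had lower values after *ADAR* KO, with a median log2 fold change of −0.83 against −0.01 over all 11135 genes tested, but no gene passed the test. The spread between the sgRNAs was wide. By edgeR's quasi-likelihood test 0 of 45 were lower at an adjusted p under 0.05 (0.0449% of all genes tested, with 1.2% higher). At an unadjusted p under 0.05, 17 were lower (831 of all 11135 genes). DESeq2 called 5 lower (0.575% of all genes). The lowest adjusted p, 0.0667, belonged to *CENPF*, a large kinetochore protein (chr1:214776528-214837917, + strand, hg19), at −1.57 ± 0.335. Both *ADAR* KO libraries lay below both controls for 29 of the 45 genes, against 27.3% of all genes tested.

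The change in HCC366 was uneven over the roles. The median log2 fold change was −1.26 for the 3 chromosome structure genes, −1.18 for the 9 kinetochore genes, −1.13 for the 8 cytokinesis genes, −0.95 for the 10 spindle genes and −0.70 for the 9 entry genes, and it was −0.23 for the 3 anaphase genes tested and −0.05 for the 3 passenger complex genes. The lowest values belonged to *NUF2*, a subunit of the *NDC80* complex that grips microtubules, with 43.38 and 34.95 CPM in GFP sg1 and sg2 and 15.75 and 5.82 in ADAR sg1 and sg2 (−1.89 ± 0.498, adjusted p = 0.115). *CKAP2*, a spindle-pole microtubule protein, had 336.2 and 322.9 CPM in the controls and 152.2 and 42.68 after *ADAR* KO (−1.77 ± 0.524, adjusted p = 0.149). *ASPM*, which focuses spindle poles, had 127.8 and 105.7 CPM and then 52.49 and 22.63 (−1.65 ± 0.442, adjusted p = 0.12). All 3 had lower values in ADAR sg2 than in ADAR sg1, and no overlap with the controls. At the other end *PTTG1* (securin, which holds back the cleavage of cohesin) had 42.61 and 30.37 CPM in the controls and 43.74 and 31.69 after *ADAR* KO (0.06 ± 0.381, adjusted p = 0.948). *CDCA8* (borealin of the passenger complex) had 82.11 and 71.34 CPM and then 96.23 and 62.73 (0.05 ± 0.36, adjusted p = 0.955). For these genes the groups overlapped.

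Among the best-known members in HCC366, *TOP2A* had 688.7 and 581.6 CPM in the controls and 326.3 and 120.3 after *ADAR* KO (−1.51 ± 0.453, adjusted p = 0.152). *KIF11*, the motor that pushes spindle poles apart, had 113.9 and 127.2 CPM and then 62.11 and 34.92 (−1.32 ± 0.386, adjusted p = 0.143). *CDK1*, the kinase that starts mitosis, had 144.1 and 126.3 CPM and then 81.36 and 29.1 (−1.31 ± 0.473, adjusted p = 0.206). The groups did not overlap for any of these 3, nor for *MKI67*, the Ki-67 protein that coats mitotic chromosomes, with 871.5 and 640 CPM and then 382.3 and 249.6 (−1.26 ± 0.344, adjusted p = 0.1245). *BUB1*, a checkpoint kinase, had 160.4 and 121.8 CPM in the controls and 130.3 and 54.32 after *ADAR* KO (−0.62 ± 0.442, adjusted p = 0.47). *CCNB1* (cyclin B1) had 152.6 and 109.4 CPM and then 116.3 and 58.85 (−0.58 ± 0.409, adjusted p = 0.462). The groups overlapped for both. *PRC1*, which bundles microtubules of the spindle midzone, had 118.5 and 77.35 CPM and then 89.23 and 72.43 (−0.27 ± 0.363, adjusted p = 0.712). *CDC20*, the activator of the anaphase-promoting complex, had 142.5 and 89.67 CPM and then 111.1 and 86.01 (−0.23 ± 0.367, adjusted p = 0.76). *AURKB*, the Aurora kinase of the passenger complex, had 105.4 and 70.76 CPM and then 80.48 and 87.94 (−0.05 ± 0.353, adjusted p = 0.95), and its groups overlapped as well.

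The 2 *ADAR* sgRNAs gave different sizes of change in HCC366. Against the mean of both controls, the median log2 ratio was −0.43 in ADAR sg1 and −1.58 in ADAR sg2, and 29 and 42 of the 45 genes lay below both controls. *UBE2C*, not tested for its few reads, had 3.099 and 1.432 CPM in the controls and 5.249 and 5.82 after *ADAR* KO. The base composition of the transcripts moved with these values. GC content and exon length accounted for 48.5% of the variance, over all genes, of the log2 ratio of ADAR sg2 to the other HCC366 libraries, and their part in the result was not tested beyond a fit with offsets for both. With those offsets 11 genes were lower (*TTK*, *NUF2*, *SPC25*, *CENPF*, *KIF11*, *ASPM*, *CKAP2*, *TOP2A*, *MKI67*, *ANLN* and *ECT2*), against 2.48% of all genes tested. The median change of the mitosis genes was then −0.51. It was −0.40 without ADAR sg2 and −1.58 without ADAR sg1. Leaving out GFP sg1 gave a median of −0.70, and leaving out GFP sg2 gave −1.04.

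**Figure D2:**
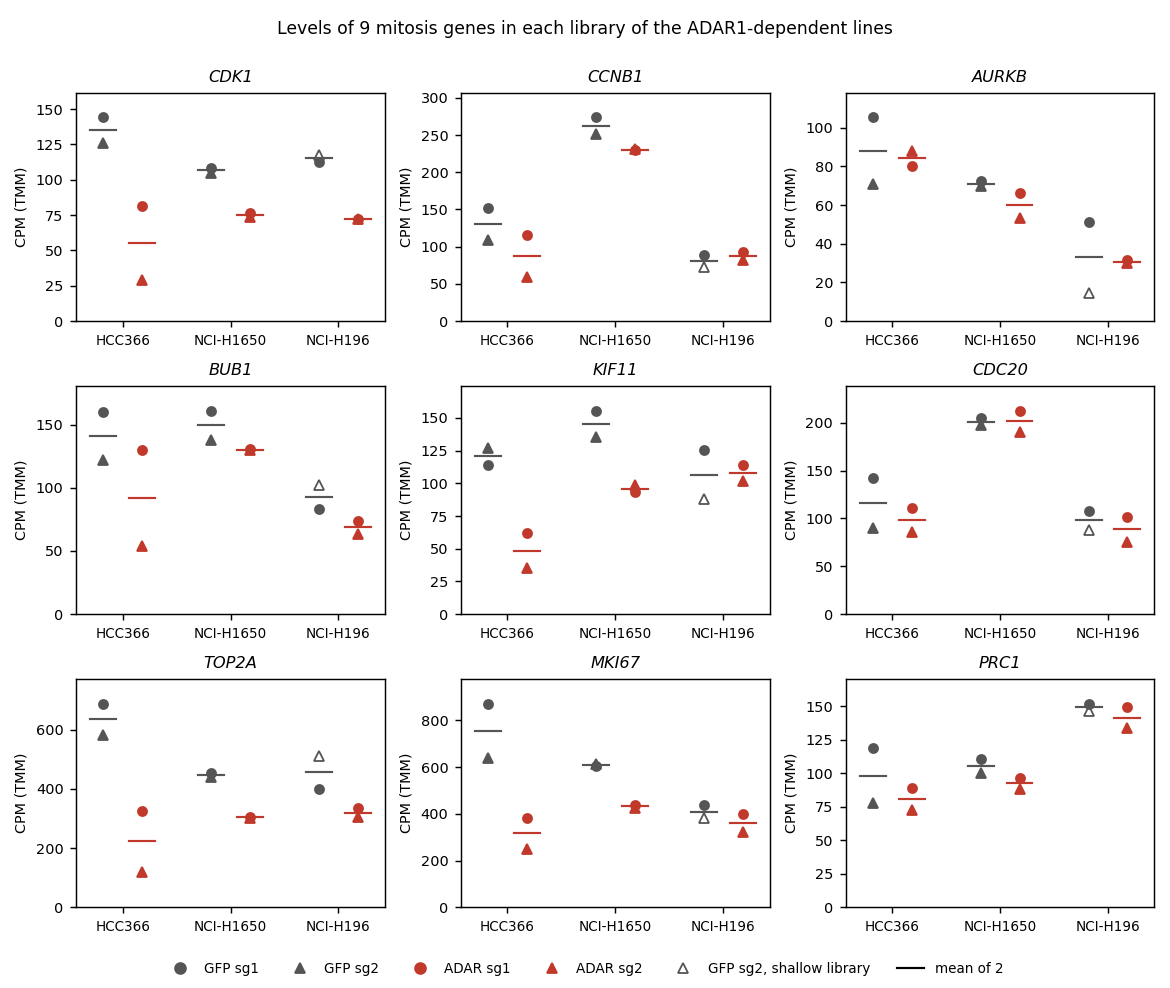
TMM-scaled CPM (vertical axis, 1 panel per gene) of 9 mitosis genes in the *GFP* and *ADAR* KO libraries of HCC366, NCI-H1650 and NCI-H196 (horizontal axis). Circles are sgRNA 1, triangles sgRNA 2, the open triangle is the NCI-H196 control of 62679 reads, and a line marks the mean of the 2 libraries. In HCC366 the ADAR sg2 triangles for *CDK1*, *KIF11*, *TOP2A* and *MKI67* lie lowest (29.1, 34.92, 120.3 and 249.6 CPM), and in NCI-H1650 the points of a condition lie close together.

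In NCI-H1650 *ADAR* KO lowered 19 of the 46 mitosis genes and raised none, and 44 had a log2 fold change below 0. The median was −0.33, against 0.01 over all 14530 genes tested, and the libraries of a condition lay closer together than in HCC366. The genes that fell came from 6 of the 7 roles. They were *CDK1*, *CCNA2* and *PBK* of the entry genes, *SPC25*, *CENPE* and *CENPF* of the kinetochore, *KIF11*, *ASPM*, *DLGAP5*, *NUSAP1* and *CKAP2* of the spindle, *UBE2C*, *TOP2A* and *MKI67*, and the cytokinesis genes *KIF23*, *KIF20B*, *KIF14*, *ECT2* and *CEP55*. Of all genes tested 2.42% were called lower and 6.18% higher. At an unadjusted p under 0.05, 30 mitosis genes were lower and none higher (1247 and 1902 of all 14530 genes). In both *ADAR* KO libraries 43 of the 46 genes lay below both controls (24.3% of all genes tested). The median log2 ratio to the controls was −0.31 in ADAR sg1 and −0.30 in ADAR sg2.

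The lowest values in NCI-H1650 belonged to *SPC25*, a subunit of the *NDC80* complex (chr2:169690642-169769881, − strand, hg19), with 14.33 and 16 CPM in GFP sg1 and sg2 and 8.172 and 7.688 in ADAR sg1 and sg2 (−0.93 ± 0.231, adjusted p = 0.00526). *PBK*, a kinase active in mitosis, fell from 22.71 and 22.45 CPM to 11.7 and 13.03 (−0.87 ± 0.193, adjusted p = 0.00139). *ASPM* fell from 203.3 and 201.8 CPM to 118.1 and 129.2 (−0.71 ± 0.105, adjusted p = 1.3e-06). For these genes the gap between the groups was wider than the distance between libraries of a group, and the same held for *CENPF*, with 349.3 and 327.2 CPM before and 213.2 and 208.2 after (−0.68 ± 0.102, adjusted p = 1.54e-06). *KIF14*, a motor needed in the last step of cytokinesis, fell from 72.11 and 64.01 CPM to 42.71 and 43.14 (−0.67 ± 0.131, adjusted p = 0.000272). At the upper end *CENPA*, the histone that marks centromeres, had 24.26 and 27.47 CPM in the controls and 26 and 26.05 after *ADAR* KO (0.01 ± 0.164, adjusted p = 0.981). *HMMR*, a spindle protein, had 49.84 and 47.77 CPM and then 41.23 and 52.53 (−0.06 ± 0.139, adjusted p = 0.849). Both overlapped between groups.

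*KIF11* (chr10:94333862-94415152, + strand, hg19) fell in NCI-H1650 from 155.7 and 135.2 CPM to 93.23 and 98.45 (−0.60 ± 0.111, adjusted p = 8.89e-05). *TOP2A* (chr17:38544777-38574148, − strand) fell from 454.5 and 439 CPM to 304.8 and 303 (−0.56 ± 0.0998, adjusted p = 6.32e-05). *CDK1* (chr10:62538089-62554610, + strand) fell from 108.5 and 104.6 CPM to 76.14 and 73.89 (−0.51 ± 0.115, adjusted p = 0.00193). No *ADAR* KO library reached a control for these genes or for *MKI67* (chr10:129894923-129924687, − strand), which fell from 603.3 and 612.9 CPM to 436.8 and 426.7 (−0.49 ± 0.099, adjusted p = 0.000366). *AURKB* had 72.55 and 69.74 CPM and then 66.49 and 53.17 (−0.25 ± 0.127, adjusted p = 0.252). *BUB1* had 161.2 and 138.1 CPM and then 130.6 and 129.6 (−0.20 ± 0.108, adjusted p = 0.267). These genes, *CCNB1* and *PRC1* did not pass the test although their groups did not overlap. *CCNB1* had 273.7 and 251.3 CPM and then 229.5 and 231.3 (−0.19 ± 0.102, adjusted p = 0.277). *PRC1* had 110.3 and 100.1 CPM and then 96.57 and 87.98 (−0.19 ± 0.114, adjusted p = 0.35). *CDC20* overlapped, with 204.6 and 197.5 CPM and then 212.8 and 190.7 (0.01 ± 0.103, adjusted p = 0.986). DESeq2 called 7 of the 46 lower (0.557% of all genes). Without GFP sg1 the median log2 fold change over the 46 genes was −0.23 by edgeR, against −0.33 in the main fit.

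In NCI-H196 *ADAR* KO lowered 22 of the 46 genes and raised none by edgeR's quasi-likelihood test, while DESeq2 called 0 (1 at an unadjusted p under 0.05, with 38 adjusted p-values withheld by its filter). The median log2 fold change was −0.35 against −0.00 over all 14094 genes tested, and 41 of the 46 were below 0. The kinetochore and checkpoint genes had the most calls by number, 6 of 9 (*BUB1*, *BUB1B*, *TTK*, *NDC80*, *NUF2* and *SPC25*). The share was no higher than in the passenger complex or in chromosome structure, each with 2 of 3 called. From the other roles came *CDK1*, *CCNA2*, *PBK*, *AURKB*, *BIRC5*, *KIF2C*, *DLGAP5*, *NUSAP1*, *CKAP2*, *CDC20*, *CDCA3*, *TOP2A*, *MKI67*, *KIF23*, *ANLN* and *CEP55*. Of all genes tested 7.5% were called lower and 10.3% higher. At an unadjusted p under 0.05, 28 mitosis genes were lower and 1 was higher (1844 and 2252 of all 14094 genes). Both *ADAR* KO libraries lay below both controls for 22 of the 46 (15% of all genes tested). The GFP sg2 control held 378 reads on the 46 genes, and no read for *SPC25*, *CDCA3* or *KIF20A*, which at 3 reads allows up to 43.98 CPM each and covers counting error only. For 10 of the 46 genes, 1 of them called (*SPC25*), the fitted change and the difference of the mean CPM had opposite signs. The fit gives more weight to libraries with more reads, and GFP sg1 held 9156750. Without GFP sg2, edgeR called 24 genes lower, including all 22, but without GFP sg1 it called 1 (*TTK*), without ADAR sg1 2 and without ADAR sg2 0.

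*CDCA3*, which helps to degrade the mitosis inhibitor *WEE1*, had the lowest fold change in NCI-H196, with 10.93 and 0 CPM in GFP sg1 and sg2 and 4.06 and 4.893 in ADAR sg1 and sg2 (−1.17 ± 0.303, adjusted p = 0.00158). *SPC25* had 18.29 and 0 CPM and then 11.17 and 8.28 (−1.06 ± 0.24, adjusted p = 0.000211). For both, the fall is against GFP sg1, since the *ADAR* KO values lie above the empty GFP sg2. *PBK* fell from 49.74 and 58.63 CPM to 27.41 and 25.97 (−0.93 ± 0.164, adjusted p = 6.56e-07). *CCNA2* (cyclin A2) fell from 70.48 and 87.95 CPM to 42.63 and 41.65 (−0.76 ± 0.144, adjusted p = 4.71e-06), and neither gene overlapped between groups. The highest fold changes were those of *KIF20B*, a motor of the midzone, with 49.85 and 87.95 CPM and then 58.87 and 64.11 (0.32 ± 0.142, adjusted p = 0.102), and of *KIF18A*, which dampens chromosome movement at the metaphase plate, with 24.2 and 29.32 and then 24.36 and 29.73 (0.25 ± 0.18, adjusted p = 0.372). *KIF14* had 60.33 and 117.3 CPM and then 85.27 and 68.62 (0.23 ± 0.135, adjusted p = 0.245). These 3 overlapped. The positive values of *KIF20B* and *KIF14* are against GFP sg1, since their mean CPM was lower after *ADAR* KO (61.49 against 68.9, and 76.95 against 88.8). Without GFP sg1 the 3 changes were −0.47 (*KIF20B*), −0.02 (*KIF18A*) and −0.70 (*KIF14*).

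*CDK1* fell in NCI-H196 from 112.9 and 117.3 CPM to 72.07 and 72.51 (−0.64 ± 0.118, adjusted p = 2.25e-06), with no overlap. *AURKB* had 51.41 and 14.66 CPM, the second value being a single read, and then 31.47 and 30.11 (−0.74 ± 0.159, adjusted p = 7.68e-05), and so lay between its controls. *CDC20* had 108.1 and 87.95 CPM and then 101.5 and 75.78 (−0.41 ± 0.117, adjusted p = 0.00454). *TOP2A* fell from 399.7 and 513 CPM to 334 and 304.7 (−0.37 ± 0.105, adjusted p = 0.00427), without overlap. *BUB1* fell from 82.97 and 102.6 CPM to 74.1 and 63.48 (−0.35 ± 0.129, adjusted p = 0.0418), also without overlap. *MKI67* had 436.9 and 381.1 CPM and then 399.9 and 321.2 (−0.32 ± 0.105, adjusted p = 0.0197). The *MKI67* and *CDC20* groups overlapped. *KIF11* had 125.6 and 87.95 CPM and then 113.7 and 101.5 (−0.26 ± 0.109, adjusted p = 0.0787), again a change against GFP sg1. *PRC1* had 151.8 and 146.6 CPM and then 149.2 and 133.6 (−0.14 ± 0.105, adjusted p = 0.38). *CCNB1* had 88.21 and 73.29 CPM and then 92.37 and 82.3 (−0.06 ± 0.121, adjusted p = 0.795), although its mean CPM was higher after *ADAR* KO (87.34 against 80.75). Without GFP sg1 the *CCNB1* value was 0.21.

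Across the 3 ADAR1-dependent cell lines, fitted together with the line as a term, all 46 genes had a log2 fold change below 0 and 13 were called lower. The median was −0.50, against −0.01 over all 16538 genes tested, of which 1.02% were called lower and 4.28% higher. The called genes were *CDK1*, *CCNA2* and *PBK*, the kinetochore genes *BUB1B*, *TTK*, *NDC80*, *SPC25* and *CENPF*, the spindle genes *KIF11*, *ASPM* and *CKAP2*, and *TOP2A* and *MKI67*. None of the 3 passenger complex, 4 anaphase or 8 cytokinesis genes was called. Their medians were −0.32, −0.19 and −0.55. All 8 cytokinesis genes were below 0, 7 of them at an unadjusted p under 0.05 (1777 of all 16538 genes were lower at that p). The 10 spindle genes, 3 of them called, had a median of −0.44, so the lack of calls does not set cytokinesis apart. *SPC25* had the lowest value (−1.16 ± 0.199, adjusted p = 0.0022), then *CKAP2* (−1.01 ± 0.254, adjusted p = 0.0281) and *PBK* (−0.98 ± 0.216, adjusted p = 0.0135). *CDK1* changed by −0.84 ± 0.196 (adjusted p = 0.0188). *TPX2*, *CDCA8* and *UBE2C* changed least, by −0.13, −0.15 and −0.16. DESeq2 called 16 lower (2.44% of all genes). edgeR called 3 without HCC366 GFP sg1, 26 without HCC366 ADAR sg2, and 9 to 14 without any other single library.

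Gene by gene, 36 of the 46 had values below 0 in every one of the 3 lines taken alone. In 13 genes (*CDK1*, *CCNA2*, *NEK2*, *PBK*, *BUB1B*, *TTK*, *NDC80*, *NUF2*, *ASPM*, *CKAP2*, *TOP2A*, *CDCA2* and *KIF23*) both *ADAR* KO libraries lay below both controls in all 3 lines, against 3% of all genes tested, and 0 lay above them throughout (5.91% of all genes). Of these, *NEK2* (a centrosome kinase), *NUF2*, *CDCA2* and *KIF23* (the motor of centralspindlin) did not pass the joint test. NCI-H1650 and NCI-H196 shared 11 called genes (*CDK1*, *CCNA2*, *PBK*, *SPC25*, *DLGAP5*, *NUSAP1*, *CKAP2*, *TOP2A*, *MKI67*, *KIF23* and *CEP55*), which is 11 of the 19 calls in NCI-H1650 and 11 of the 22 in NCI-H196, while 1.06% of the 12523 genes tested in both lines were called lower in both. In neither line were 16 of the 46 called. *CENPF* fell in NCI-H1650, while in NCI-H196 it had 281.7 and 469.1 CPM in the controls and 338 and 317.8 after *ADAR* KO (0.16 ± 0.106, adjusted p = 0.325). The positive value is against GFP sg1, since both *ADAR* KO libraries lay below the mean of the controls, and it was −0.52 without GFP sg1 and 0.19 without GFP sg2.

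Few differences between lines passed a test of the difference itself. The change in HCC366 was below that in NCI-H196 for *CENPF* (difference −1.61 ± 0.336, adjusted p = 0.0248), 1 of 46 genes tested in the joint fit of the 3 lines, against 0.339% of all genes called lower and 0.454% higher. Of the 12 fits that left out 1 library, 3 kept this call (without HCC366 ADAR sg1, HCC366 ADAR sg2 or NCI-H196 GFP sg2), and without NCI-H196 GFP sg1 the difference was −1.26 (adjusted p = 0.5485). For *KIF14* (−1.84 ± 0.466, adjusted p = 0.0636) and *ECT2*, the exchange factor that starts cleavage (−1.58 ± 0.424, adjusted p = 0.0781), the same difference was not called. Between HCC366 and NCI-H1650, 0 of 46 were called by edgeR (0.145% of all genes lower and 0.514% higher) or DESeq2. At an unadjusted p under 0.05, 14 were lower and 1 higher (1200 and 1250 of all 16538 genes). The extremes were *NUF2* at −1.73 ± 0.444 (adjusted p = 0.071) and *UBE2C* at 1.84 ± 0.595 (adjusted p = 0.145). The *UBE2C* value rests on few reads in HCC366, 4 and 5 in the controls and 6 and 9 after *ADAR* KO. Between NCI-H1650 and NCI-H196, 0 of 46 were called by edgeR (0% of all genes) or DESeq2. At an unadjusted p under 0.05, 2 were lower and 1 higher (225 and 319 of all 16538 genes). The joint fit, to whose spread HCC366 contributes, had a median standard error of 0.3845 for this difference. Each line fitted alone had 0.1177 (NCI-H1650) and 0.1335 (NCI-H196) for its own change. The lowest adjusted p over all genes was 0.378 by edgeR, so this test does not show that these lines changed alike.

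In A549 with vehicle, no mitosis gene passed the test after *ADAR* KO, and most values lay near those of the controls. None of 46 was called by edgeR's quasi-likelihood test (0.0906% of all 15449 genes lower and 0.0324% higher), none at an unadjusted p under 0.05, and none by DESeq2. The median log2 fold change was 0.04, with 34 genes above 0, and both *ADAR* KO libraries lay above both controls for 15 genes and below them for 1 (18.8% and 17.8% of all genes tested). The summed level was 7900 and 7852 CPM in GFP sg1 and sg2 and 8029 and 8260 in ADAR sg1 and sg2. *PBK* had the highest value, with 80.23 and 74.57 CPM and then 81.95 and 100.9 (0.25 ± 0.139). *HMMR* had 62.15 and 68.39 CPM and then 69.51 and 82.69 (0.22 ± 0.1252). *CKS2*, a subunit that binds *CDK1*, had 74.42 and 69.39 CPM and then 77.2 and 89.5 (0.22 ± 0.141). In all 3 ADAR sg2 was highest. The lowest was *NUF2*, with 35.23 and 27.82 CPM and then 26.95 and 27.46 (−0.20 ± 0.154), followed by *SPC25* with 18.08 and 19.72 and then 17.32 and 18.82 (−0.07 ± 0.188). *KIF14* had 84.85 and 90.04 CPM and then 78.05 and 91.13 (−0.05 ± 0.117). The adjusted p was 0.999 for each of these 6 genes.

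**Figure D3:**
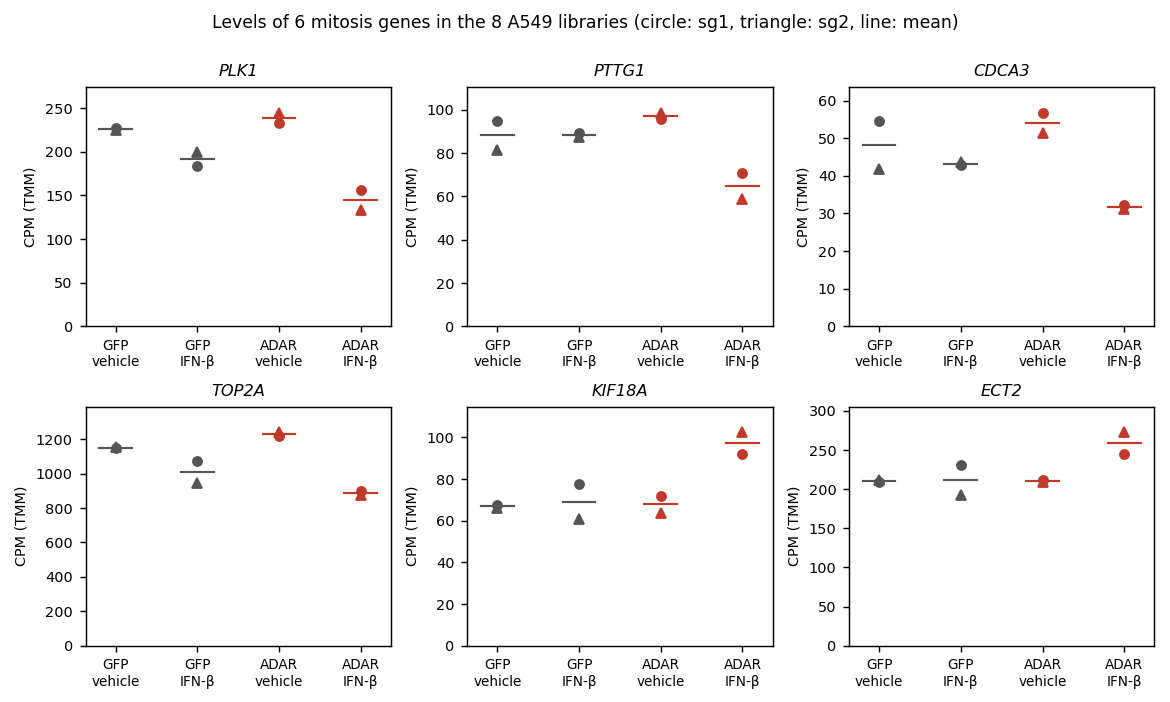
TMM-scaled CPM (vertical axis, 1 panel per gene) of *PLK1*, *PTTG1*, *CDCA3*, *TOP2A*, *KIF18A* and *ECT2* in the 4 A549 conditions (horizontal axis: *GFP* or *ADAR* sgRNAs, with vehicle or IFN-β). Circles are sgRNA 1, triangles sgRNA 2, and a line marks the mean of the 2 libraries. *PLK1*, *PTTG1*, *CDCA3* and *TOP2A* are lowest in the *ADAR* KO libraries with IFN-β (133.1 and 156.1 CPM for *PLK1*), and *KIF18A* and *ECT2* are highest there (92.07 and 102.5 CPM for *KIF18A*).

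With IFN-β, *ADAR* KO in A549 lowered 8 mitosis genes and raised 2. The genes that fell were *PTTG1*, *CDCA3* and *UBE2C* of the anaphase group, *PLK1* and *CCNA2* of the entry group, and *AURKB*, *KIF4A* and *KIF20A*, and those that rose were *KIF18A* and *ECT2*. Of all genes tested 6.19% were called lower and 10.8% higher. The median over the 46 was −0.12 (−0.01 over all genes), with 34 below 0, and both *ADAR* KO libraries lay below both controls for 25 genes and above them for 4 (27.5% and 28.2% of all genes). At an unadjusted p under 0.05, 17 were lower and 3 higher (2055 and 2591 of all 15449 genes).

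*PTTG1* (chr5:159848862-159855746, + strand, hg19) had 89.37 and 87.5 CPM in the *GFP* libraries with IFN-β and 70.94 and 58.96 in the *ADAR* KO libraries with IFN-β (−0.45 ± 0.115, adjusted p = 0.00626). *CDCA3* had 42.86 and 43.65 CPM and then 32.37 and 31.3 (−0.44 ± 0.136, adjusted p = 0.0221). *AURKB* had 97.34 and 102.5 CPM and then 79.14 and 69.43 (−0.43 ± 0.11, adjusted p = 0.006). *PLK1*, the Polo-like kinase of mitotic entry and spindle assembly (chr16:23688977-23701688, + strand), had 183.3 and 199.8 CPM and then 156.1 and 133.1 (−0.41 ± 0.101, adjusted p = 0.00486). These 4 did not overlap between groups. *KIF18A* (chr11:28042166-28129703, − strand) had 77.46 and 60.67 CPM and then 92.07 and 102.5 (0.50 ± 0.12, adjusted p = 0.00376). *ECT2* (chr3:172468472-172539264, + strand) had 231 and 192.4 CPM and then 245.2 and 272.8 (0.29 ± 0.102, adjusted p = 0.0441). Both were above both controls in both libraries. *KIF20B* had 94.16 and 71.1 CPM and then 97.22 and 104.6, also without overlap, but did not pass (0.30 ± 0.124, adjusted p = 0.101). Without ADAR sg2 with IFN-β no gene was called either way, and without ADAR sg1 with IFN-β 5 were lower and 2 higher. Without GFP sg2 with IFN-β 10 were lower and none higher, and without GFP sg1 with IFN-β 6 were lower and 5 higher.

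IFN-β changed few mitosis genes in A549 cells with *GFP* sgRNAs, where 1 of 46 was called lower, *BIRC5* (survivin of the passenger complex), against 1.31% of all genes lower and 4.39% higher. *BIRC5* had 233.8 and 214.2 CPM with vehicle and 178.3 and 177.4 with IFN-β (−0.33 ± 0.0974, adjusted p = 0.0361). *CENPA* had 35.1 and 29.81 CPM and then 24.76 and 23.29 (−0.43 ± 0.148, adjusted p = 0.0987), and was not called although its groups did not overlap. *KIF14* had 84.85 and 90.04 CPM and then 77.84 and 68.49 (−0.26 ± 0.117, adjusted p = 0.255). The highest value was that of *BUB1*, with 145.5 and 145.6 CPM and then 163.1 and 143.8 (0.07 ± 0.101, adjusted p = 0.817). *KIF18A* had 67.69 and 66.27 CPM and then 77.46 and 60.67 (0.04). *TTK* had 42.09 and 40.64 CPM and then 48.02 and 35.89 (0.01), and all 3 genes overlapped between treatments. The median was −0.11 with 41 of 46 below 0, and 18 genes lay below both vehicle libraries in both IFN-β libraries (20.3% of all genes). The median log2 ratio to vehicle was −0.04 in GFP sg1 and −0.20 in GFP sg2. The *BIRC5* call was lost without GFP sg1 with vehicle, GFP sg2 with vehicle or GFP sg2 with IFN-β, and without GFP sg1 with IFN-β 3 genes were called.

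In A549 cells with *ADAR* sgRNAs, IFN-β lowered 24 of the 46 mitosis genes and raised 2, with a median log2 fold change of −0.32 (−0.00 over all genes) and 40 below 0. All 3 passenger complex genes and all 4 anaphase genes fell, as did 7 of the 9 entry genes (*CCNB1*, *CCNB2*, *CCNA2*, *CKS2*, *PLK1*, *AURKA* and *PBK*). The kinetochore gave 4 of 9 (*BUB1B*, *SPC25*, *CENPA* and *CENPF*), chromosome structure 2 of 3 (*TOP2A* and *MKI67*), cytokinesis 3 of 8 (*PRC1*, *KIF23* and *KIF20A*) and the spindle 1 of 10 (*KIF4A*, a chromosome-bound motor). *KIF18A* and *ECT2* rose. Of all genes tested 9.04% were called lower and 15.5% higher. The IFN-β libraries lay below both vehicle libraries for 34 genes and above them for 4 (30.9% and 33.3% of all genes). Without ADAR sg2 with vehicle 12 genes were lower and without ADAR sg2 with IFN-β 12.

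*CDCA3* fell the most with IFN-β in *ADAR* KO cells, from 56.71 and 51.36 CPM to 32.37 and 31.3 (−0.76 ± 0.137, adjusted p = 8.59e-05). *PLK1* fell from 233.5 and 244.6 CPM to 156.1 and 133.1 (−0.73 ± 0.102, adjusted p = 1.82e-06). *PBK* fell from 81.95 and 100.9 CPM to 65.9 and 52.61 (−0.64 ± 0.139, adjusted p = 0.000903). *BIRC5* fell from 233.2 and 246.4 CPM to 159.5 and 149.6 (−0.64 ± 0.098, adjusted p = 9.34e-06), and none of these 4 overlapped. *KIF18A* rose from 72.07 and 63.77 CPM to 92.07 and 102.5 (0.52 ± 0.122, adjusted p = 0.00183). *ECT2* rose from 211.6 and 209.3 CPM to 245.2 and 272.8 (0.30 ± 0.102, adjusted p = 0.0302). The checkpoint kinase *TTK* had 41.34 and 40.58 CPM and then 43.93 and 48.08 (0.17 ± 0.139, adjusted p = 0.403), without overlap and without a call.

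The genes described for each dependent line behaved unevenly in A549. *TOP2A* had 1149 and 1154 CPM in *GFP* cells with vehicle, 1076 and 943.4 in *GFP* cells with IFN-β, 1218 and 1241 in *ADAR* KO cells with vehicle and 900.7 and 875.8 in *ADAR* KO cells with IFN-β, and it fell with IFN-β in *ADAR* KO cells (−0.47, adjusted p = 0.00047). In the same order of conditions *MKI67* had 828.3 and 956.4, 807.1 and 745.5, 897.4 and 859.3, and 722.9 and 665.8 CPM (−0.34 with IFN-β in *ADAR* KO cells, adjusted p = 0.0116). *CCNB1* had 333.8 and 306.8, 311.3 and 269.1, 308.1 and 331.4, and 259.7 and 230.6 CPM (−0.38, adjusted p = 0.00542). For these 3 the *ADAR* KO libraries with IFN-β were the lowest of the 8. The same held for *AURKB*, with 107.4 and 96.88, 97.34 and 102.5, 94.63 and 103.6, and 79.14 and 69.43 CPM (−0.42, adjusted p = 0.00529). *PRC1* had 249.8 and 245, 233.6 and 222.6, 259.9 and 247.8, and 208.7 and 187.9 CPM (−0.36, adjusted p = 0.00675), and *CDC20* had 343.7 and 296.7, 313.1 and 318.3, 333.9 and 341.6, and 275.6 and 262.3 CPM (−0.33, adjusted p = 0.0124). Both were again lowest under the combination. *KIF11* had 180.6 and 188.6, 180.1 and 151.9, 181.1 and 193.3, and 155.4 and 168.4 CPM (−0.21, adjusted p = 0.146). *CDK1* had 90.79 and 96.35, 102.8 and 83.58, 104.1 and 107.9, and 94.8 and 96.62 CPM (−0.15, adjusted p = 0.365). *BUB1* had 145.5 and 145.6, 163.1 and 143.8, 151.2 and 149.5, and 144 and 156.2 CPM (−0.00, adjusted p = 0.995), and these last 3 genes were not called in any A549 comparison.

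The interaction asks whether IFN-β changed a gene more in *ADAR* KO cells than in *GFP* cells, and it uses all 8 A549 libraries, which the other A549 comparisons share among themselves. It was called for 2 of 46 mitosis genes, both lower (0.977% of all genes lower and 4.07% higher). *PTTG1* had an interaction of −0.60 ± 0.163 (adjusted p = 0.0285), with 95.01 and 81.54 CPM in *GFP* cells with vehicle, 89.37 and 87.5 with IFN-β, 95.73 and 98.56 in *ADAR* KO cells with vehicle and 70.94 and 58.96 with IFN-β. *PLK1* had −0.49 ± 0.143 (adjusted p = 0.0405), with 227.5 and 224.8 CPM in *GFP* cells with vehicle, 183.3 and 199.8 with IFN-β, 233.5 and 244.6 in *ADAR* KO cells with vehicle and 156.1 and 133.1 with IFN-β. In *GFP* cells *PTTG1* overlapped between treatments, whereas both *PLK1* values with IFN-β lay below those with vehicle. *CDCA3* had an interaction of −0.62 ± 0.192 (adjusted p = 0.0545) and *KIF18A* of 0.48 ± 0.173 (adjusted p = 0.111), and neither was called. In the same order of conditions *CDCA3* had 54.5 and 41.77, 42.86 and 43.65, 56.71 and 51.36, and 32.37 and 31.3 CPM, and *KIF18A* had 67.69 and 66.27, 77.46 and 60.67, 72.07 and 63.77, and 92.07 and 102.5 CPM. The next highest interactions were those of *ECT2* (0.29) and *KIF20B* (0.20). *ECT2* had 208.8 and 212.2, 231 and 192.4, 211.6 and 209.3, and 245.2 and 272.8 CPM, and *KIF20B* had 92.63 and 79.68, 94.16 and 71.1, 83.78 and 99.37, and 97.22 and 104.6 CPM. The median interaction was −0.16, with 14 genes lower and 1 higher at an unadjusted p under 0.05 (1157 and 1724 of all 15449 genes). No gene was called without GFP sg2 with vehicle, ADAR sg1 with vehicle, ADAR sg2 with vehicle or ADAR sg2 with IFN-β. The calls of *PTTG1* and *PLK1* were not both kept without GFP sg1 with vehicle or without GFP sg2 with IFN-β.

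Other genes of the pathway were read from 4 further lists, in the main fit. Whether their calls hold in other settings was not tested, which matters most in NCI-H196. Of all 14094 genes tested there, the main fit called 1057 lower and 1456 higher. DESeq2, whose filter withheld some adjusted p-values, called 0 lower and 11 higher. A block by sgRNA number gave 5 lower and 110 higher. Of 76 *other mitosis genes* (condensins, cohesin, further kinetochore and anaphase-promoting complex subunits), *ADAR* KO lowered 15 in NCI-H1650, against 2.42% of all genes tested. In NCI-H196 it lowered 25 (7.5% of all genes) and raised 2 (10.3%). It changed none in HCC366 or in A549 with vehicle. In A549 with IFN-β it lowered 12 (6.19% of all genes) and raised 2 (10.8%). In NCI-H196 *SKA1*, which tracks microtubule ends with the kinetochore, fell the most (−1.08, adjusted p = 1.66e-09), and the cohesin subunit *STAG1* rose (0.39, adjusted p = 0.00267). *SGO1* (shugoshin, the protector of cohesin) fell the most in NCI-H1650 (−0.65, adjusted p = 0.0217) and across the 3 lines (−0.85, adjusted p = 0.0145). In A549 with IFN-β *ADAR* KO lowered the centromere protein *CENPW* (−0.64, adjusted p = 0.0252) and raised the centriole kinesin *KIF24* (0.66, adjusted p = 0.00157). *MASTL* (Greatwall kinase) rose with IFN-β in *GFP* cells (1.33, adjusted p = 1.28e-09) and in *ADAR* KO cells (1.46, adjusted p = 1.15e-10). It was the single gene of this *list* called in *GFP* cells, and its direction was opposite to that of *BIRC5*.

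Of 50 *DNA replication genes*, *ADAR* KO lowered 17 in A549 with IFN-β, 10 in NCI-H196 and 5 in NCI-H1650. Of all genes tested, 6.19%, 7.5% and 2.42% were called lower, in the same order. None of the 50 was lowered in HCC366 or in A549 with vehicle. *RRM2*, a subunit of ribonucleotide reductase, fell the most in NCI-H196 (−0.95, adjusted p = 1.62e-17), where the histone chaperone subunit *CHAF1A* rose (0.30, adjusted p = 0.0486). *RFC3*, of the clamp loader, fell the most in NCI-H1650 (−0.66, adjusted p = 0.00162), and *POLE2*, of DNA polymerase epsilon, across the 3 lines (−0.84, adjusted p = 0.0375). *CCNE1* (cyclin E1) fell the most in A549, by *ADAR* KO under IFN-β (−0.75, adjusted p = 0.000759) and by IFN-β in *ADAR* KO cells (−0.84, adjusted p = 0.000114). It was also called as an interaction (−0.82, adjusted p = 0.0214), where the lowest value among the 50 genes was −1.23. The helicase subunit *MCM2* fell by *ADAR* KO under IFN-β (−0.40, adjusted p = 0.00807) and by IFN-β in *ADAR* KO cells (−0.42, adjusted p = 0.0032). In A549 with IFN-β the median over these 50 genes was −0.25, against −0.12 over the 46 mitosis genes.

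Of 22 *regulators of mitosis genes*, *ADAR* KO lowered 2 of the 21 tested in NCI-H196 (7.5% of all genes) and 2 of 22 in A549 with IFN-β (6.19% of all genes), shares near those of all genes, raised 1 in each, and changed none in HCC366, NCI-H1650 or A549 with vehicle. *FOXM1*, the activator of late cell-cycle genes, fell in NCI-H196 (−0.38, adjusted p = 0.00455) and with IFN-β in A549 *ADAR* KO cells (−0.32, adjusted p = 0.0227). *MYBL2*, of the MuvB activator complex, fell by *ADAR* KO in A549 with IFN-β (−0.39, adjusted p = 0.00611) and with IFN-β in *ADAR* KO cells (−0.54, adjusted p = 0.000149). *E2F1* was called nowhere (−0.34, adjusted p = 0.0624, for *ADAR* KO in A549 with IFN-β). In NCI-H196 *E2F8* fell (−0.51, adjusted p = 0.00891) and *RB1*, the retinoblastoma repressor, rose (0.65, adjusted p = 0.00131). In A549 with IFN-β *ADAR* KO lowered *E2F2* (−0.59, adjusted p = 0.00633) and raised *NFYB*, an NF-Y subunit (0.54, adjusted p = 0.0178). *TFDP2*, a partner of E2F proteins, fell the most with IFN-β in *ADAR* KO cells (−0.88, adjusted p = 0.000441).

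Among 18 *mitotic entry switches and CDK inhibitors*, *CDKN1A*, the p21 inhibitor of cyclin-dependent kinases, had a log2 fold change after *ADAR* KO of 2.09 ± 0.493 in HCC366 (adjusted p = 0.0865). NCI-H1650 had 0.22 (adjusted p = 0.183), NCI-H196 had 0.38 (adjusted p = 0.00504), and the 3 lines together had 0.84 (adjusted p = 0.0672). It was called in NCI-H196, and not in HCC366, NCI-H1650 or A549. *CDKN1C* (p57) rose in NCI-H196 (1.82, adjusted p = 0.0404) and across the 3 lines (1.89, adjusted p = 0.0468). *CDKN3*, a phosphatase of cyclin-dependent kinases, fell the most in NCI-H1650 (−0.64, adjusted p = 0.0146) and across the 3 lines (−0.67, adjusted p = 0.0479). In A549 with IFN-β *ADAR* KO lowered *CDC25A*, a phosphatase that activates CDKs (−0.46, adjusted p = 0.0261), and raised *CDK6* (0.68, adjusted p = 2.03e-05), which also had an interaction (0.56, adjusted p = 0.0215). With IFN-β in *ADAR* KO cells *CDKN2C* fell the most (−0.57, adjusted p = 0.0197), *CDK6* rose the most (0.40, adjusted p = 0.00478) and *CCND1* (cyclin D1) rose (0.29, adjusted p = 0.0268). *WEE1*, the kinase that inhibits *CDK1*, was called in none of the comparisons.

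**Figure D4:**
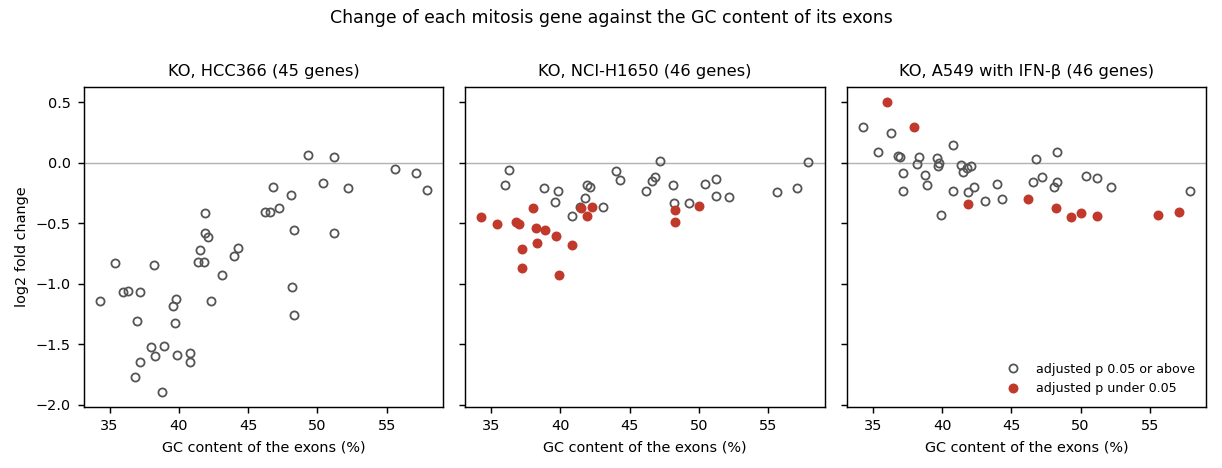
Log2 fold change of the mitosis genes after *ADAR* KO (vertical axis) against the GC content of their exons in percent (horizontal axis), 1 panel each for HCC366 (45 genes), NCI-H1650 (46) and A549 with IFN-β (46). Red points have an adjusted p under 0.05. The points climb from left to right in HCC366 and NCI-H1650 (Spearman's rho 0.76 and 0.50) and descend in A549 with IFN-β (−0.656).

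The change of a mitosis gene went with the GC content of its transcript, in different directions in the lines. Across genes, which are not independent replicates, Spearman's rho between the log2 fold change and GC content was 0.76 over the 45 genes tested in HCC366 (0.586 over all genes). It was 0.50 over the 46 genes in NCI-H1650 (all genes 0.247), and −0.182 in NCI-H196 (all genes 0.239). In HCC366 the 23 genes with GC content under 41.9%, the median of the 46, had a median change of −1.18 and the other 22 of −0.41. In NCI-H1650 15 of the 23 genes below that value and 4 of the 23 others were called lower. *KIF11*, *ASPM*, *CENPF* and *TOP2A* stood among the former. In A549 with IFN-β the order was the reverse, with rho −0.656 over 46 genes (−0.326 over all genes), and 1 of 23 and 7 of 23 were called lower. With offsets for GC content and length, *ADAR* KO lowered 25 genes (NCI-H1650), 9 (NCI-H196) or 19 (A549 with IFN-β). Of all genes tested, 3.81%, 1.78% and 8.52% were then called lower, in the same order. With the same offsets neither *KIF18A* (0.23, adjusted p = 0.0933) nor *ECT2* (0.08, adjusted p = 0.549) was called in A549 with IFN-β. *PTTG1* (−0.57) and *PLK1* (−0.47) were still called in the interaction, among 11 lower (3.14% of all genes). IFN-β in *ADAR* KO cells then lowered 38 genes (20.3% of all genes). The median was −0.46 over the 46 and −0.12 over all genes, so those changes are to be read against that shift. The part of base composition in these changes was not tested beyond these offsets.

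Some of the counts may include reads of neighbours, or lack reads that the counting set aside as ambiguous. How the counting used strand was not stated, so reads of overlapping genes could not be told apart. This concerns *CCNA2* (with *EXOSC9*), *PLK1* (*ERN2*), *BUB1B* (*PAK6*), *NUSAP1* (*OIP5*), *CENPA* (*SLC35F6*), *KIF20A* (*CDC23* and *BRD8*), *KIF4A* (*PDZD11*), *HMMR*, *PRC1* and *KIF23* (each with its antisense RNA), *CDCA3* (*GNB3*), *ANLN*, and *NUF2* and *KIF2C* (each with an unnamed gene on the other strand).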

How the data were processed

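The deposited files hold raw counts per Ensembl gene, made by the authors with STAR on hg19 and HTSeq after rRNA depletion and a directional library kit (150-bp paired-end reads per the methods). Versions, gene annotation and strand setting were not given in the sources used here, and the study's own tests used DESeq2. The 5 HTSeq summary lines of each file stayed out of library sizes. Totals on genes ran from 62679 to 19520189, and the 2 libraries of a condition differed by 1.34 to 17.5 times the counting noise (chi-square per degree of freedom), most in HCC366 *ADAR* KO. Nothing states that the 2 libraries of a condition came from separate cultures, so p-values measure the spread between these libraries.

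Genes were filtered with edgeR's filterByExpr, scaled by TMM and tested with edgeR's quasi-likelihood test (edgeR 4.0.16, limma 3.58.1, R 4.3.3), each dependent line alone, the 8 A549 libraries in 1 fit, and the 12 libraries of the 3 dependent lines in a further fit, with Benjamini-Hochberg adjustment over all genes tested and 0.05 as threshold. Log2 fold changes used a prior count of 0.125, and the standard error was the log2 fold change divided by the square root of F. Gene positions, exon lengths and GC content came from GENCODE on GRCh37 and promoter windows from RefSeq. The scripts were tested on simulated data.

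The 46 genes, their roles and the other lists were chosen with earlier results of these data known. All members may be named. Values in every library are given for *CDK1*, *CCNB1*, *AURKB*, *BUB1*, *KIF11*, *CDC20*, *TOP2A*, *MKI67* and *PRC1* and for the 3 highest and 3 lowest fold changes of each comparison within a line. From the lists, *CDKN1A*, *FOXM1*, *MYBL2*, *E2F1*, *CCND1*, *WEE1*, *MCM2* and the largest called change in each direction are named. Other genes were named after their values were seen.

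Alternatives were DESeq2 1.42.0, RLE scaling, no filter, 1 fit of all 20 libraries, offsets for GC content and length (splines with 5 degrees of freedom), each library left out (the lone library then being assumed to vary like the others), and a block by sgRNA number. Same-numbered libraries did not deviate together (correlations of −0.247 to −0.0046), so the numbers did not pair the samples and the main design has no block.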

Additional observations from a re-analysis of the deposited data

Results flagged for a closer look

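The response to IFN-β in A549 differed between *ADAR* KO and GFP cells for 2 of the 46 mitosis genes by the interaction test. The interaction was −0.60 for *PTTG1* and −0.49 for *PLK1* on the log2 scale. Without GFP sg2 with vehicle, either *ADAR* KO library with vehicle or *ADAR* sg2 with IFN-β, neither gene was called. Nor were both calls kept without GFP sg1 with vehicle or without GFP sg2 with IFN-β. The response to *ADAR* KO differed between HCC366 and NCI-H196 for *CENPF*, by −1.61 on the log2 scale in the joint fit of the 3 lines (each line fitted alone had −1.57 and 0.16). The call was kept in 3 of the 12 fits that left out 1 library. The positive NCI-H196 value is against GFP sg1, in which *CENPF* had 281.7 CPM, and was −0.52 without that library.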

How the results depend on the processing

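Numbers are mitosis genes called lower unless stated. The share of all genes called lower moved with the setting too, and the counts are to be read against it. For HCC366 that share was 0.0449% in the main fit and 8.45% in 1 fit of all 20 libraries. For HCC366 and its differences from the other lines, the largest counts with 1 library left out also came with a larger share of all genes than in the main fit. Scaling by RLE moved none of these counts by over 1.5 times. DESeq2 gave 5 (HCC366), 7 (NCI-H1650) and 0 (NCI-H196), with 0.575%, 0.557% and 0% of all genes called lower. Without the filter there were 13 in HCC366, 12 in NCI-H196, 5 for *ADAR* KO in A549 with IFN-β, 0 for IFN-β in GFP cells, 1 for the interaction and 21 across the 3 lines. Of all genes, 0.9%, 1.59%, 2.24%, 0.499%, 0.441% and 1.7% were then called lower, in the same order. Fitting all 20 libraries together gave 25 (HCC366), 0 (NCI-H1650), 0 (NCI-H196), 0 (and 0 higher) for *ADAR* KO with IFN-β, 0 for IFN-β in GFP cells, 10 (0 higher) for IFN-β in *ADAR* KO cells, 0 for the interaction and 27 across the 3 lines. The shares of all genes called lower were 8.45%, 0.0102%, 0.0461%, 1.67%, 0.4%, 3.25%, 0.0154% and 6.86%, in the same order. Offsets for GC content and length gave 11 in HCC366, 9 in NCI-H196, 19 (0 higher) for *ADAR* KO with IFN-β, 6 for IFN-β in GFP cells, 38 (0 higher) for IFN-β in *ADAR* KO cells, 11 for the interaction and 21 across the 3 lines. With them 2.48%, 1.78%, 8.52%, 4.63%, 20.3%, 3.14% and 4.33% of all genes were called lower, in the same order. The causes were not tested.

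A block by sgRNA number gave 3 (HCC366), 17 (NCI-H1650), 0 (NCI-H196), 1 higher for *ADAR* KO with IFN-β, 0 for IFN-β in GFP cells (also 0 with a block by sgRNA), 1 for the interaction (3 with a block by sgRNA), 6 across the 3 lines and 0 for HCC366 minus NCI-H196. Of all genes, 0.395% (HCC366), 1.78% (NCI-H1650) and 0.0355% (NCI-H196) were then called lower. The share was 0.803% for the interaction (1.07% with a block by sgRNA) and 0.121% across the 3 lines. A block with the numbers crossed, chosen after seeing the data because same-numbered libraries deviated in opposite directions, gave 14 in HCC366 and 8 in NCI-H196 (3.6% and 2.53% of all genes).

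Leaving out 1 library at a time gave 0 to 35 (HCC366), 8 to 16 (NCI-H1650), 0 to 24 (NCI-H196), 0 to 10 (0 to 5 higher) for *ADAR* KO with IFN-β, 0 to 3 for IFN-β in GFP cells, 12 to 21 (0 to 2 higher) for IFN-β in *ADAR* KO cells, 0 to 3 (0 to 2 higher) for the interaction and 3 to 26 across the 3 lines. The differences gave 0 to 29 for HCC366 minus NCI-H1650, 0 to 29 (0 to 1 higher) for HCC366 minus NCI-H196 and 0 to 1 for NCI-H1650 minus NCI-H196. Without GFP sg1 in NCI-H196, where the control left has 62679 reads and all genes have a median of 0.18, 5 of the 22 called genes turned upward. The median over the mitosis genes did not, at −0.47 there against −0.35 in the main fit. Over the libraries left out, log2 fold changes ran from −0.77 to 1.05 (*AURKB*), −1.12 to 7.72 (*SPC25*, no read in that control), −0.67 to 9e-04 (*DLGAP5*), −0.35 to 0.14 (*ANLN*) and −0.44 to 0.19 (*CEP55*). In the NCI-H196 control of 62679 reads 1 read was worth 14.66 CPM, which limits low genes there, and 2 libraries per condition limit every comparison.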
